A study of Mus musculus with 32 samples.

Results

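The 9 genes described here are transcripts of T cells, B cells, plasma cells and cytotoxic lymphocytes, measured by bulk RNA-seq in mouse models of high-grade serous ovarian carcinoma. They were taken by gene symbol from a table of 55450 genes, and all 9 were found: Cd3e, Cd3g, Cd4, Cd8a, Cd79a, Cd79b, Jchain, Gzmb and Nkg7. The libraries numbered 32, from 26 tumours and 6 normal organs in 10 groups, with 13987123 to 20514825 assigned counts each.

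The tumours came from 4 models, each sampled as allografts and as primary tumours of the genetically engineered mice (GEMM), all at endpoint and all from females. OSE-BPR mice were FVB, carried Brca1 fl/fl, Trp53 fl/fl and K18GT121 Tg/+, and received adenoviral Cre under the ovarian bursa (5 allografts and 3 GEMM tumours). Ovgp1-BPR mice were C57Bl/6 and carried Ovgp1-CreERT2 Tg/+ and K18GT121 Tg/+ with Brca1 fl/fl and, by the sample labels, Trp53 KozR172H ki/+, although the genotype in the series text has Trp53 fl/fl (3 allografts and 3 GEMM tumours). Ad-BPR mice were C57Bl/6 with the alleles of OSE-BPR and received adenoviral Cre in the oviduct (4 allografts and 2 GEMM tumours). Pax8-BPR mice were C57Bl/6 with the alleles of OSE-BPR plus Pax8-CreERT2 Tg/+ (2 allografts and 4 GEMM tumours). In Ovgp1-BPR and Pax8-BPR, tamoxifen activated Cre in oviductal secretory cells. The normal groups were whole oviduct (n = 3) and whole ovary (n = 3) of the same 3 wild-type C57Bl/6 animals. The K18GT121 transgene is driven in keratin 18-positive epithelium and inhibits the Rb family, and all 26 tumours carried it. The 6 epithelial markers, such as Epcam and Krt8, summed to 531 to 8030 CPM (counts-per-million) in tumours, 1270 to 1540 in oviducts and 61.6 to 93.8 in ovaries, but Epcam itself was only 2.8 and 0.465 CPM in Ovgp1-BPR allograft replicates 1 and 2 and 3.62 CPM in Ovgp1-BPR GEMM replicate 3. Strain and site of origin changed together between OSE-BPR and the other models, so they cannot be told apart. Ages, the hosts of the allografts and their source tumours were not given in the sources used here, so some allografts could stem from a common tumour, and p-values measure only the spread between these samples.

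T cells recognise antigen through a receptor whose signal is carried into the cell by the CD3 chains, with CD4 or CD8 as coreceptor. B cells signal through surface immunoglobulin paired with CD79A and CD79B, and plasma cells, their descendants, lose much of that surface receptor and secrete antibody, of which the polymeric forms IgM and IgA are joined by the J chain. Cytotoxic T cells and natural killer cells carry granules with granzymes, and both make Gzmb and Nkg7. In ovarian carcinoma, infiltrating T cells and plasma cells are among the immune cells most often counted. In bulk RNA, fewer cells of a type and less RNA per cell cannot be told apart, and a transcript does not show which cell made it.

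The upstream sequences of Nkg7 and Gzmb are shown because the highest levels of both granule genes fell in the same tumours. Both were read from RefSeq promoters on GRCm38.p6, ending before the first base transcribed in RefSeq or GENCODE, 5′ to 3′ on the gene's strand. The capitals mark each match to the core of the RUNX motif, TGTGGT or its reverse complement ACCACA. The Nkg7 stretch was chr7:43436888-43437072 on the plus strand (185 bases), and the Gzmb stretch was chr14:56262335-56262584 on the minus strand (250 bases).
Nkg7: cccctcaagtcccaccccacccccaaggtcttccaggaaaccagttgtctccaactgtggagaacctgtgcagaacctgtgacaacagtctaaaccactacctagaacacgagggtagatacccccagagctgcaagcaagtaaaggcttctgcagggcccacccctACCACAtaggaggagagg
Gzmb: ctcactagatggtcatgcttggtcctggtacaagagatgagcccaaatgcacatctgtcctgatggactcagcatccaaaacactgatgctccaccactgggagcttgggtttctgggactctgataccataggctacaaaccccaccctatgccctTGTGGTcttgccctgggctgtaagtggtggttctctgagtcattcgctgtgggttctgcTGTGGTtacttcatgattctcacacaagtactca
Of 32851 promoter windows of 250 bases, 14.0% held TGTGGT on either strand. RefSeq entries were found for 7 members, and Nkg7 and Gzmb were the only members among them with a match. The ETS core CAGGAAG (10.8% of all windows) matched in Cd79a, Nkg7 and Cd3e, each time before the RefSeq start. These matches lay in bases that GENCODE already counts as transcribed, except for the first base of the Cd3e match. The Nkg7 match thus lies outside the stretch shown. The GATA motif AGATAA (9.99%) matched in Cd3g. Of the 11 motifs searched on both strands, the other 8 matched in no member: the octamer ATTTGCAT (1.6% of all windows), the E-box CAGCTG (13.0%), the EBF core CCCNNGGG (11.8%), the EBF palindrome (0.779%, which contains that core), TGTGGTTT (1.49%, an extension of the RUNX core), the TATA box TATAAA (12.4%), the NF-kB site (0.14%) and a tandem interferon response element (2.98%).

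On GRCm38, Cd3e (ENSMUSG00000032093.7) lies on chromosome 9, 44998740 to 45009627, and Cd3g (ENSMUSG00000002033.14) beside it on chromosome 9, 44969572 to 44980431, both on the minus strand. Cd4 (ENSMUSG00000023274.14) lies on chromosome 6, 124864692 to 124888221, minus strand, and Cd8a (ENSMUSG00000053977.13) on chromosome 6, 71373427 to 71379173, plus strand. Cd79a (ENSMUSG00000003379.7) lies on chromosome 7, 24897381 to 24902197, plus strand, and Cd79b (ENSMUSG00000040592.11) on chromosome 11, 106311341 to 106314762, minus strand. Jchain (ENSMUSG00000067149.6) lies on chromosome 5, 88519809 to 88527891, minus strand. Gzmb (ENSMUSG00000015437.5) lies on chromosome 14, 56258838 to 56262260, minus strand, and Nkg7 (ENSMUSG00000004612.9) on chromosome 7, 43437073 to 43438249, plus strand. The antisense gene Gm48719 overlaps Cd3e over 3557 bases and had 1 count in the 32 libraries, against 478 for Cd3e, and whether counting used strand was not given in the sources used here.

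Lymphocyte transcripts were scarce in most libraries: the 9 genes summed to 15770 counts in 32 libraries, of which Jchain gave 9809. The highest sums were 3602, 3401 and 2194 counts in Pax8-BPR GEMM replicates 2 to 4 and 1996 in Ovgp1-BPR allograft replicate 3. A value of 3 counts or fewer in a library is called at the floor here, and 3 counts corresponded to 0.14 to 0.219 CPM (median 0.171) at these depths. Of 288 member values, 86 (29.9%) were at the floor and 32 of them were 0. The 8 OSE-BPR tumours held 54 of their 72 values at the floor (75.0%), against 28 of 162 (17.3%) in the 18 tumours of oviduct origin and 4 of 54 (7.41%) in normal organs. Cd3g and Gzmb were at the floor in all 8 OSE-BPR tumours, and 205 of the 352 member counts of those tumours were Cd79a. Outside OSE-BPR the floor was reached most often in Ovgp1-BPR GEMM replicates 2 and 3, with 6 of 9 members each, and in Pax8-BPR allograft replicate 2, with 5. No member was at the floor in any of the 4 Pax8-BPR GEMM tumours or the 2 Ad-BPR GEMM tumours.

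**Figure D1:**
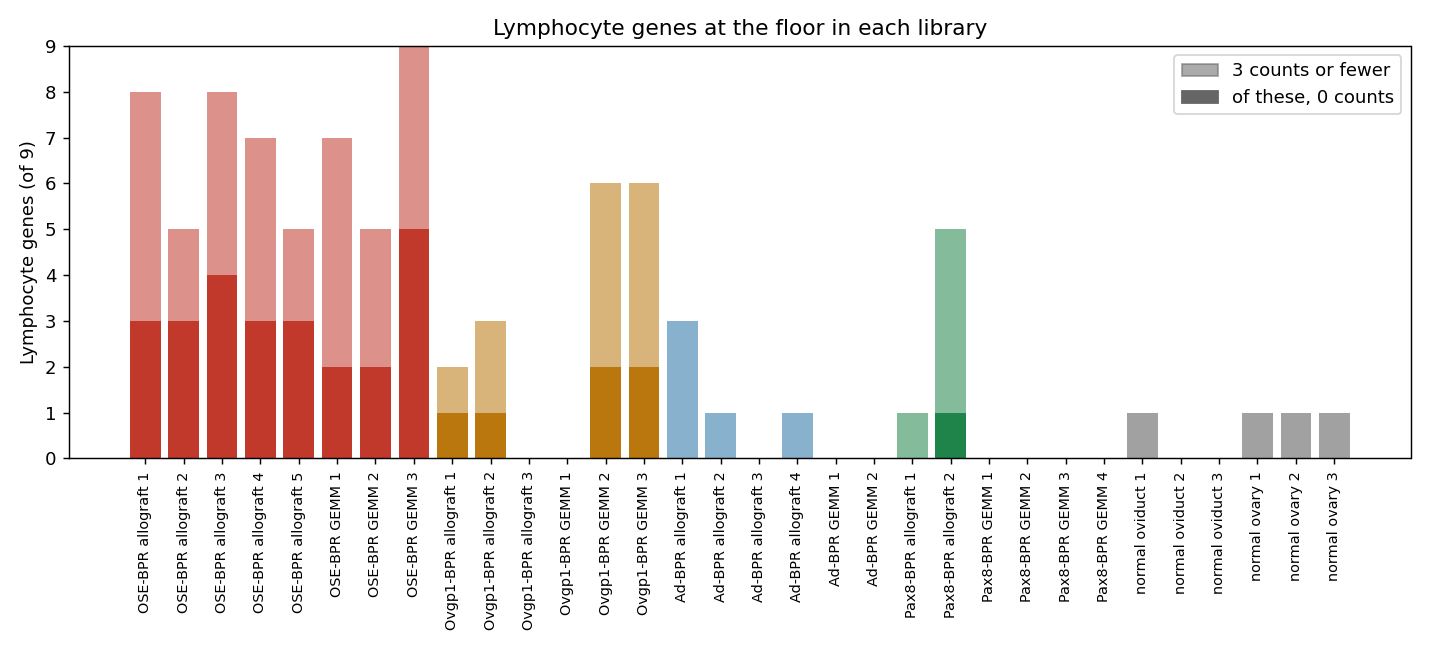
Number of the 9 lymphocyte genes (vertical axis) with 3 counts or fewer (pale bars) and with 0 counts (dark bars) in each of the 32 libraries, by group. The 8 OSE-BPR libraries had 5 to 9 of the 9 genes at 3 counts or fewer, and the 4 Pax8-BPR GEMM libraries had none.

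The CD3 chains, which carry the T cell receptor signal, were highest in Pax8-BPR GEMM tumours. Cd3e was 0.0573, 0.108, 0.0629, 0.129 and 0.31 CPM in OSE-BPR allografts, 0.392, 0.207 and 1.31 in those of Ovgp1-BPR, 0.349, 0.236, 2.64 and 0.0555 in those of Ad-BPR, and 0.117 and 0.0729 in those of Pax8-BPR. It was 0.201, 0.22 and 0 CPM in OSE-BPR GEMM tumours, 1.16, 0.164 and 0.0566 in those of Ovgp1-BPR, 1.35 and 0.284 in those of Ad-BPR, and 0.706, 4.08, 2.92 and 5.59 in those of Pax8-BPR. Normal oviducts had 0.84, 0.831 and 0.625 CPM of Cd3e and normal ovaries 0.624, 0.571 and 0.657, so normal organs lay in a narrow band while tumours lay both above and below it. Cd3g was 0.172, 0, 0, 0 and 0 CPM in OSE-BPR allografts, 0.168, 0.0517 and 0.654 in those of Ovgp1-BPR, 0.419, 0.65, 3.54 and 0.444 in those of Ad-BPR, and 0.293 and 0 in those of Pax8-BPR. It was 0.067, 0 and 0 CPM in OSE-BPR GEMM tumours, 0.794, 0.0546 and 0.0566 in those of Ovgp1-BPR, 1.21 and 0.284 in those of Ad-BPR, and 0.989, 8.43, 3.18 and 6.18 in those of Pax8-BPR. Normal oviducts had 1.14, 0.727 and 0.673 CPM of Cd3g and normal ovaries 0.554, 0.457 and 0.602, all above the 8 OSE-BPR tumours. Ad-BPR allograft replicate 3 was the only allograft of its group above 1 CPM in either chain.

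The coreceptors Cd4 and Cd8a differed in how evenly they were present. Cd4 belongs to helper and regulatory T cells, and some macrophages and dendritic cells can also carry it. Cd4 was 0.115, 0.215, 0.189, 0.579 and 0.372 CPM in OSE-BPR allografts, 1.51, 0.31 and 1.68 in those of Ovgp1-BPR, 2.72, 2.54, 2.25 and 1.83 in those of Ad-BPR, and 1.64 and 0.802 in those of Pax8-BPR. It was 0.402, 0.604 and 0.183 CPM in OSE-BPR GEMM tumours, 1.06, 0.491 and 0.793 in those of Ovgp1-BPR, 1.85 and 0.455 in those of Ad-BPR, and 2.68, 6.61, 6.52 and 3.22 in those of Pax8-BPR. Normal oviducts had 1.32, 2.44 and 1.49 CPM of Cd4 and normal ovaries 2.84, 1.6 and 2.41, above every OSE-BPR value. Cd8a is the coreceptor of cytotoxic T cells. Cd8a was 0, 0.162, 0, 0 and 1.3 CPM in OSE-BPR allografts, 0.504, 0 and 1.4 in those of Ovgp1-BPR, 0.14, 0.473, 7.78 and 0.222 in those of Ad-BPR, and 0.469 and 0.146 in those of Pax8-BPR. It was 0.067, 0.165 and 0 CPM in OSE-BPR GEMM tumours, 1.8, 0.109 and 0.0566 in those of Ovgp1-BPR, 2.71 and 0.91 in those of Ad-BPR, and 1.48, 2.97, 3.82 and 12.0 in those of Pax8-BPR. Normal oviducts had 0.3, 0.364 and 0.192 CPM of Cd8a and normal ovaries 0.277, 0.114 and 0.164, and Cd8a values above 1 CPM occurred only in tumours. The 4 Ad-BPR allografts were thus even in Cd4, while their Cd8a came largely from replicate 3.

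The antigen receptor chains of B cells, Cd79a and Cd79b, were not always found together. Cd79b was 0.115, 0.269, 0.0629, 0.0644 and 0.186 CPM in OSE-BPR allografts, 0.672, 0.724 and 3.32 in those of Ovgp1-BPR, 2.86, 2.13, 1.54 and 0.887 in those of Ad-BPR, and 2.41 and 4.16 in those of Pax8-BPR. It was 0, 0.274 and 0.183 CPM in OSE-BPR GEMM tumours, 0.688, 0.927 and 0.34 in those of Ovgp1-BPR, 4.56 and 2.56 in those of Ad-BPR, and 4.73, 13.7, 10.7 and 4.94 in those of Pax8-BPR. Normal oviducts had 1.8, 1.19 and 1.35 CPM of Cd79b and normal ovaries 0.762, 0.343 and 0.657. All 8 OSE-BPR tumours lay below every other library in Cd79b. Cd79a was 0.344, 0.539, 0.126, 0.708 and 6.45 CPM in OSE-BPR allografts, 0.28, 0.62 and 3.88 in those of Ovgp1-BPR, 5.93, 3.61, 0.579 and 0.665 in those of Ad-BPR, and 0.587 and 0.51 in those of Pax8-BPR. It was 4.62, 0.11 and 0.061 CPM in OSE-BPR GEMM tumours, 0.476, 0.764 and 0.396 in those of Ovgp1-BPR, 1.14 and 3.75 in those of Ad-BPR, and 2.97, 16.1, 16.1 and 5.21 in those of Pax8-BPR. Normal oviducts had 0.6, 0.623 and 0.817 CPM of Cd79a and normal ovaries 0.0693, 0.286 and 0.328. OSE-BPR allograft replicate 5 and OSE-BPR GEMM replicate 1 thus held 6.45 and 4.62 CPM of Cd79a, whereas the other 6 OSE-BPR tumours had at most 0.708 CPM.

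In those OSE-BPR tumours Cd79a was present with Cd79b and the B cell marker Ms4a1 at 3 counts or fewer. OSE-BPR allograft replicate 5 had 104 counts of Cd79a, 3 of Cd79b and 3 of Ms4a1. OSE-BPR GEMM replicate 1 had 69 counts of Cd79a and 0 of Cd79b and Ms4a1. Another B cell gene, Cd22, was not at the floor in these tumours, at 2.11 and 1.67 CPM in that order. In the other OSE-BPR tumours Cd22 was 0.122 to 1.32 CPM. Ad-BPR allograft replicate 2 had 61 counts of Cd79a and 36 of Cd79b with 1 of Ms4a1, whereas Pax8-BPR GEMM replicate 2 had 293, 249 and 174 counts of these 3 genes in the same order. The opposite imbalance was found in Pax8-BPR allograft replicate 2, with 7 counts of Cd79a, 57 of Cd79b and 0 of Ms4a1. These libraries were singled out after their values were seen. The genes next to Cd79a were present in all 32 libraries, Arhgef1 at 83.9 to 233 CPM and Rps19 at 219 to 648 CPM. The cell source of Cd79a in these tumours was not tested.

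**Figure D2:**
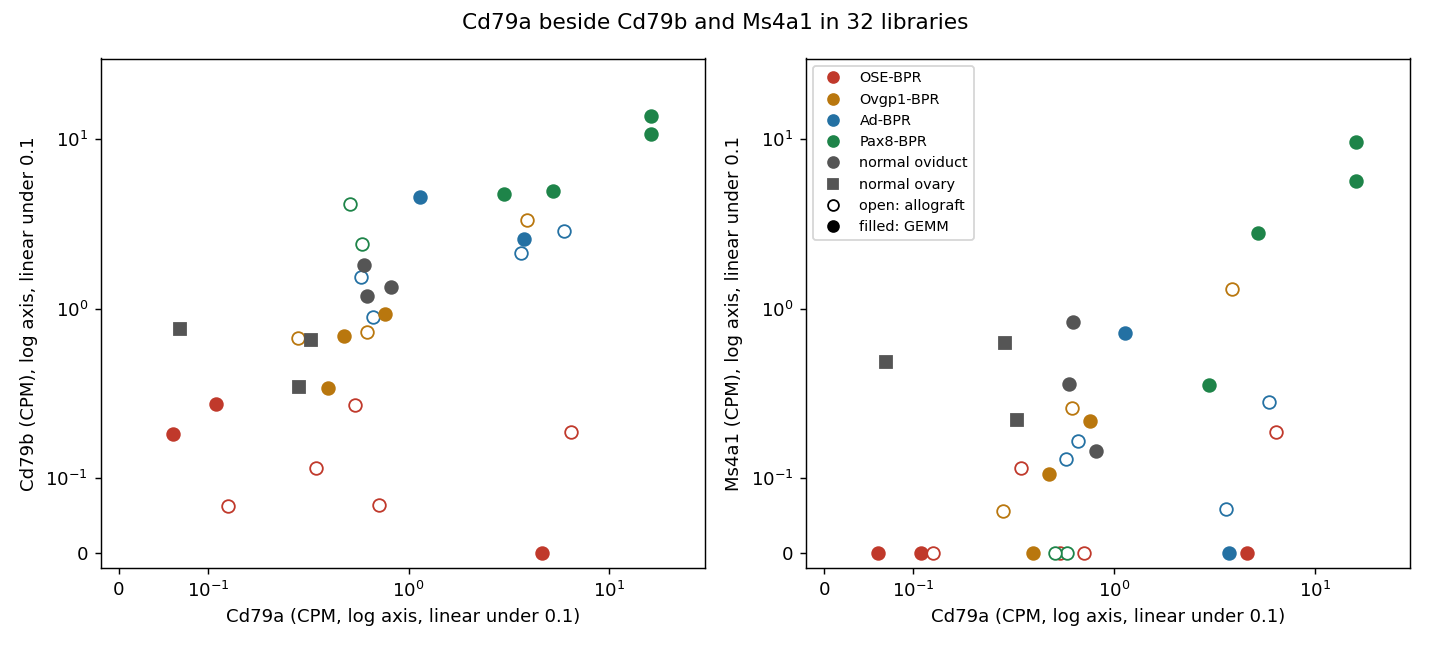
Cd79a (horizontal axes, CPM) against Cd79b (left, CPM) and Ms4a1 (right, CPM) in the 32 libraries, with open symbols for allografts and filled symbols for GEMM tumours and normal organs. OSE-BPR allograft replicate 5 and OSE-BPR GEMM replicate 1 have 6.45 and 4.62 CPM of Cd79a with 3 and 0 counts of Ms4a1.

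Jchain, which joins polymeric IgM and IgA and marks antibody-secreting cells, had the widest range of the 9 genes. Jchain was 0.0573, 0.646, 0, 0.193 and 0.062 CPM in OSE-BPR allografts, 1.4, 0.414 and 79.8 in those of Ovgp1-BPR, 29.2, 0.118, 0.772 and 3.94 in those of Ad-BPR, and 6.04 and 0.802 in those of Pax8-BPR. It was 0.134, 0.22 and 0.061 CPM in OSE-BPR GEMM tumours, 10.2, 0.164 and 0.17 in those of Ovgp1-BPR, 23.7 and 0.853 in those of Ad-BPR, and 5.72, 144, 135 and 66.9 in those of Pax8-BPR. Normal oviducts had 1.62, 14.9 and 2.55 CPM of Jchain and normal ovaries 0.832, 0.229 and 0.219. Values above 10 CPM were found in 2 Ovgp1-BPR, 2 Ad-BPR and 3 Pax8-BPR tumours and in 1 oviduct, whereas all 8 OSE-BPR tumours stayed under 1 CPM. In these 7 tumours the kappa light chain constant region Igkc was 718 CPM (Ovgp1-BPR allograft replicate 3), 41.3 (Ovgp1-BPR GEMM replicate 1), 173 (Ad-BPR allograft replicate 1), 185 (Ad-BPR GEMM replicate 1) and 1930, 1830 and 609 (Pax8-BPR GEMM replicates 2 to 4). Below 10 CPM of Jchain, Igkc was still 306 CPM in Pax8-BPR GEMM replicate 1 and 131 CPM in Pax8-BPR allograft replicate 1. In OSE-BPR tumours Igkc was at most 2.91 CPM.

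The granule genes Gzmb, a protease that kills target cells, and Nkg7, a granule membrane protein, were low in nearly every library. Gzmb was 0, 0, 0, 0.0644 and 0 CPM in OSE-BPR allografts, 0.336, 0.776 and 0.374 in those of Ovgp1-BPR, 0.14, 0.296, 3.22 and 0.333 in those of Ad-BPR, and 0.411 and 0.219 in those of Pax8-BPR. It was 0.067, 0 and 0 CPM in OSE-BPR GEMM tumours, 0.212, 0 and 0 in those of Ovgp1-BPR, 0.285 and 0.341 in those of Ad-BPR, and 0.353, 0.991, 0.583 and 8.16 in those of Pax8-BPR. Normal oviducts had 0.06, 0.26 and 0.337 CPM of Gzmb and normal ovaries 0.346, 0.628 and 0.383. Gzmb was thus above 1 CPM in only 2 of 32 libraries, Ad-BPR allograft replicate 3 and Pax8-BPR GEMM replicate 4. Nkg7 was 0, 0, 0.252, 0 and 0 CPM in OSE-BPR allografts, 0, 0.155 and 0.794 in those of Ovgp1-BPR, 0.14, 0.355, 3.54 and 0.277 in those of Ad-BPR, and 0.235 and 0.146 in those of Pax8-BPR. It was 0, 0.165 and 0 CPM in OSE-BPR GEMM tumours, 0.9, 0 and 0 in those of Ovgp1-BPR, 0.998 and 0.512 in those of Ad-BPR, and 0.989, 1.27, 1.48 and 5.64 in those of Pax8-BPR. Normal oviducts had 0.84, 0.675 and 0.288 CPM of Nkg7 and normal ovaries 0.346, 0.571 and 0.383. The same tumours held the highest Nkg7 and the highest Cd8a of their groups, and the pore-forming granule protein Prf1 at 3.67 and 3.33 CPM in that order. Ncr1, a receptor of natural killer cells, was 0.0643 and 0.107 CPM in these tumours and 0.54, 0.727 and 0.529 CPM in oviducts. Both tumour values were at the floor, since 3 counts gave 0.193 and 0.161 CPM there. The cell source of the granule genes was not tested. Gzmb and Nkg7 were each at 0 in 6 of the 8 OSE-BPR tumours.

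**Figure D3:**
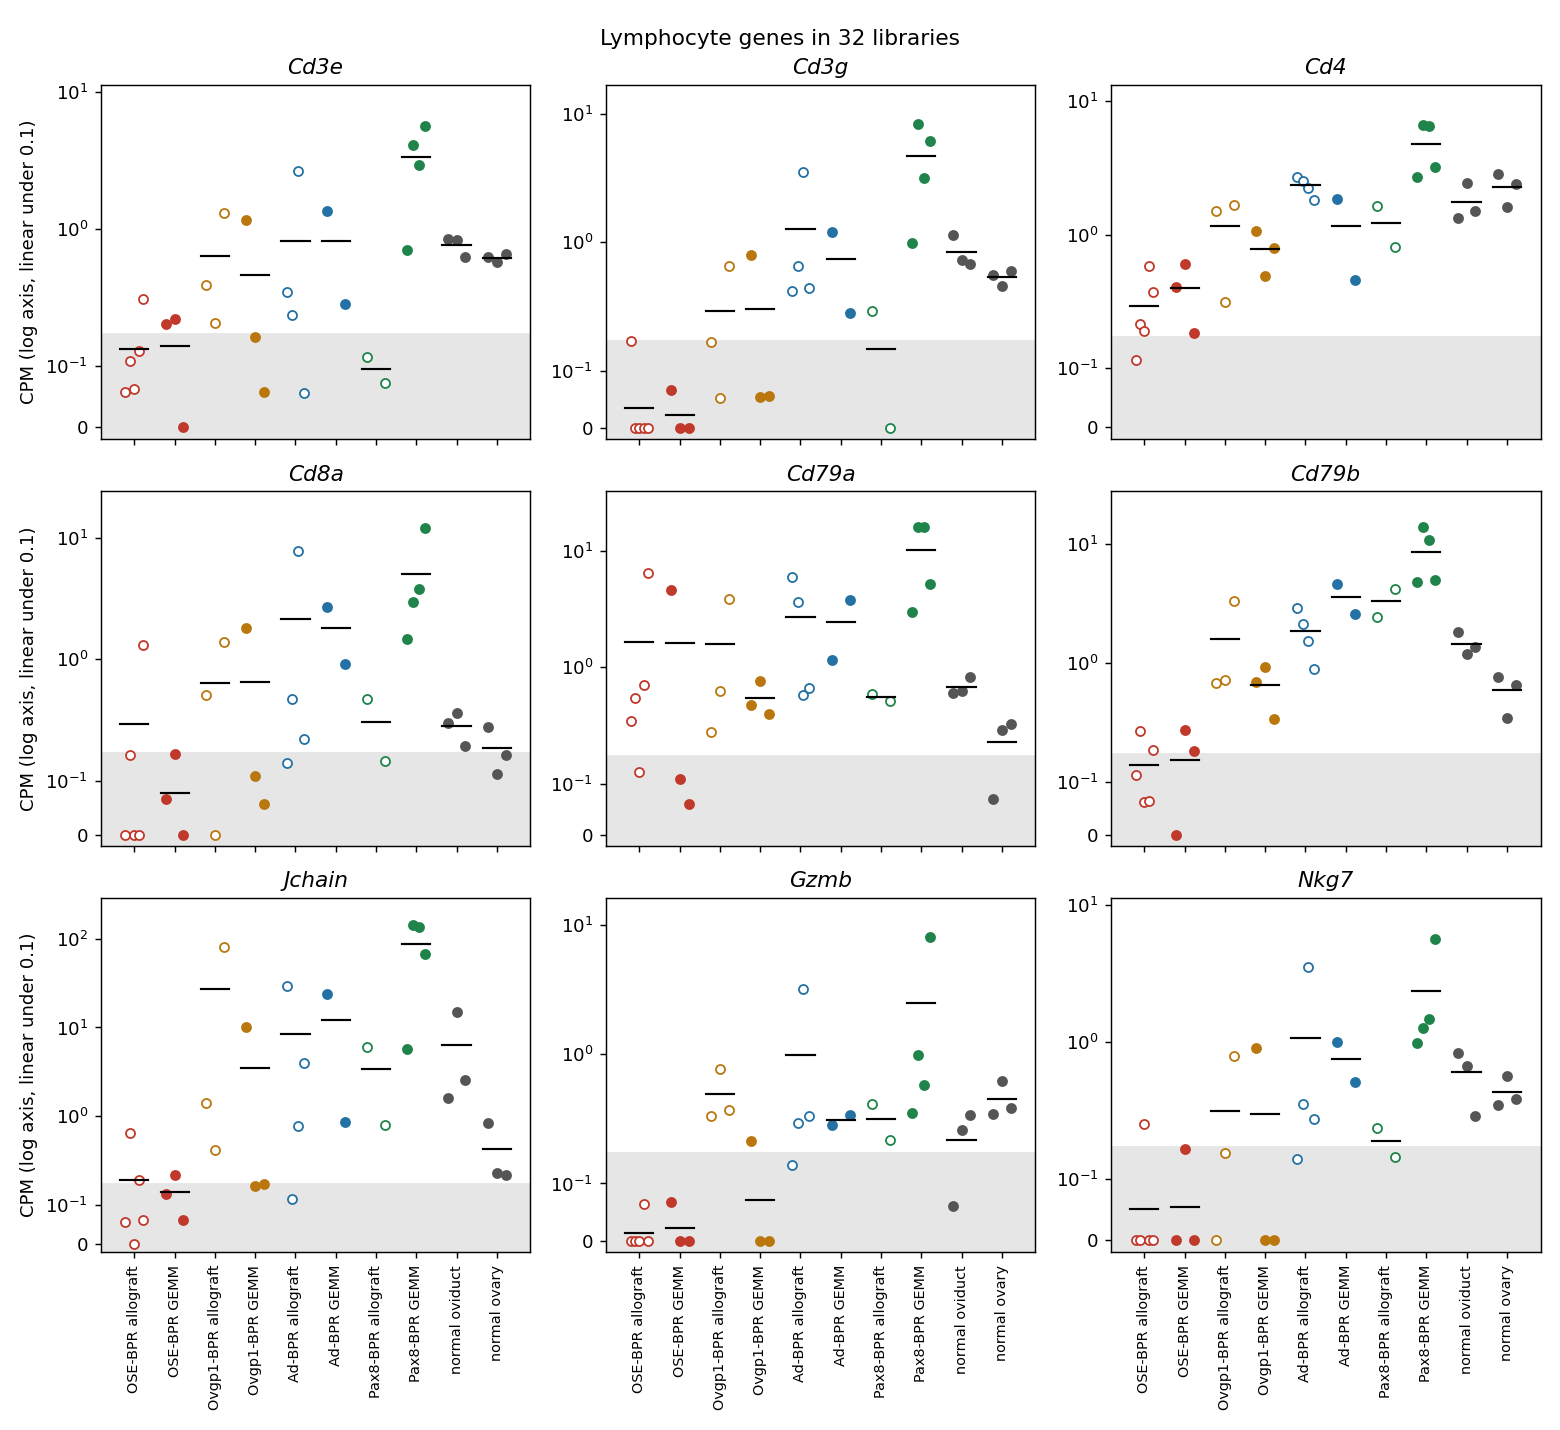
CPM (log axis, linear under 0.1) of the 9 lymphocyte genes in each library, by group, with open symbols for allografts, filled symbols for GEMM tumours and normal organs, bars for group means and a grey band up to the median CPM of 3 counts, 0.171. Pax8-BPR GEMM tumours hold the highest group mean of all 9 genes, and most OSE-BPR points lie in or near the grey band except for Cd79a.

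Per transcript length, in transcripts-per-million (TPM), Cd79a led in OSE-BPR GEMM tumours at 2.28 ± 3.72 TPM (SD, n = 3), which rested on replicate 1, and each other member averaged 0.327 TPM or less. Jchain was the most abundant member in Pax8-BPR GEMM tumours, at 115 ± 85.4 TPM (SD, n = 4), followed by Cd79b at 12.9 ± 7.57 TPM, Cd79a at 12.5 ± 9.0 TPM and Cd3g at 8.56 ± 6.43 TPM. Nkg7 (5.7 ± 5.17 TPM), Cd3e (4.22 ± 2.81), Cd8a (3.28 ± 3.14), Gzmb (3.25 ± 4.92) and Cd4 (2.78 ± 1.14) followed. Neighbours in that order after Jchain differed by less than 1 SD. In oviducts Jchain again led, at 8.01 ± 9.55 TPM, with Cd8a last at 0.203 TPM (n = 3), whereas in ovaries Cd4 led at 1.44 TPM and Cd8a was again last at 0.137 TPM (n = 3).

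In OSE-BPR GEMM tumours set against normal ovary, Cd4 and Cd3g fell. The tumours came from FVB mice and the ovaries from C57Bl/6 mice, so tumour and strain cannot be told apart here. Adjusted p-values here and in all later comparisons come from edgeR's quasi-likelihood test with Benjamini-Hochberg adjustment over all genes of the fit. Cd4 averaged 5.65-fold lower (log2 difference -2.50 ± 0.65 SE, adjusted p = 0.0074, n = 3 and 3), with all 3 tumours below all 3 ovaries. Cd3g had 1 count in the 3 tumours and 27 in the 3 ovaries (adjusted p = 0.045), a ratio whose counting interval runs from 4.39- to 1090-fold lower (95%). These were 2 of 9 members, where 11.6% of all genes fell and 11.6% rose. Cd79a had a difference of 2.74 ± 1.41 (adjusted p = 0.17), with replicate 1 above all 3 ovaries, replicate 2 below 2 of them and replicate 3 below all 3. Cd79b (-1.86 ± 0.78, adjusted p = 0.087), Cd3e (-2.08 ± 1.17, adjusted p = 0.2), Cd8a (-1.14 ± 1.87, adjusted p = 0.71) and Jchain (-1.52 ± 2.28, adjusted p = 0.67) did not pass. Gzmb had 1 count in tumours and 23 in ovaries (adjusted p = 0.061), and Nkg7 had 3 and 22 (adjusted p = 0.23). In 6 members every tumour lay below every ovary (Cd3e, Cd3g, Cd4, Cd79b, Gzmb and Nkg7), where 26.2% of all genes did so. The Cd3g call was lost without OSE-BPR GEMM replicate 2 or 3 (adjusted p = 0.14 each) and without any 1 of the ovaries (adjusted p = 0.075 to 0.087), and Cd4 passed in all of them.

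Other lymphocyte genes, from marker lists, were read in the same contrast, where 11.6% of all genes fell and 11.6% rose. Of 27 T cell genes tested, 3 fell and 1 rose (median log2 difference -0.88), including the costimulatory receptor Cd28 (-2.63 ± 0.92, adjusted p = 0.041), and the 1 that rose was Foxp3, with 7 counts in tumours and 0 in ovaries. Of 18 B cell genes 5 fell and 1 rose (median -2.02), with the transcription factor Ebf1 at -3.29 ± 0.57 (adjusted p = 0.00024) and the signalling adaptor Blnk at 2.54 ± 0.52 (adjusted p = 0.0012). Ms4a1 had 0 counts in the tumours and 22 in the ovaries, at least 2.41-fold lower by the floor of 3 counts per library. Of 13 natural killer and cytotoxic genes 3 fell, and none of 12 plasma cell genes passed. None of 10 genes of all leukocytes passed, their sum being 27.2 to 157 CPM in tumours and 89 to 130 CPM in ovaries. The median over all genes was 0, and with genes at 0 held at their bounds the medians were -0.68 for T cell, -0.99 for B cell, -0.7 for cytotoxic and -0.76 for plasma cell genes.

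Against GEMM tumours of oviduct origin (the 3 other models weighted equally), 4 members fell in OSE-BPR GEMM tumours: Cd79b, Jchain, Cd4 and Cd3g. This is 4 of 9, where 11.1% of all genes fell and 14.9% rose (n = 3 and 9). Cd79b differed by -4.06 ± 0.81 (adjusted p = 0.0013) and was the only member in which all 3 OSE-BPR tumours lay below all 9 others, as did 4.42% of all genes. Jchain differed by -6.73 ± 2.29 (adjusted p = 0.035) and Cd4 by -2.01 ± 0.62 (adjusted p = 0.022), with values of single Ovgp1-BPR tumours and, for Cd4, of Ad-BPR replicate 2 among those of OSE-BPR. Cd3g had 1 count in the 3 OSE-BPR tumours and 381 in the 9 others (adjusted p = 0.02). The counting interval of these summed counts runs from 21.5- to 4780-fold lower. Unlike the test, it does not weight the models equally, and it leaves out the spread between tumours. Of the 381, 342 were in Pax8-BPR, 22 in Ad-BPR and 17 in Ovgp1-BPR GEMM tumours. Cd3e (-2.88 ± 1.18, adjusted p = 0.077), Cd8a (-4.40 ± 1.87, adjusted p = 0.086), Gzmb (1 and 200 counts, adjusted p = 0.073) and Nkg7 (3 and 210 counts, adjusted p = 0.11) did not pass. Cd79a differed by -0.58 ± 1.17 (adjusted p = 0.76). Without OSE-BPR GEMM replicate 1 it was called lower (adjusted p = 0.045), with only 2 and 1 counts in the remaining OSE-BPR tumours.

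Cd79b passed whichever library was left out. Cd3g was lost without OSE-BPR GEMM replicate 2 (adjusted p = 0.089) or 3 (0.093). Cd4 was lost without OSE-BPR GEMM replicate 1 (0.056) or 3 (0.12) or Ad-BPR GEMM replicate 1 (0.066). Jchain was lost without OSE-BPR GEMM replicate 1 (0.088), 2 (0.10) or 3 (0.13), Ad-BPR GEMM replicate 1 (0.081) or Ovgp1-BPR GEMM replicate 1 (0.069).

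The decrease extended to further genes of B and plasma cells, where 11.1% of all genes fell and 14.9% rose. Of 18 B cell genes 13 fell (median log2 difference -4.1, and -2.2 with genes at 0 at their bounds). Among them was the IgM heavy chain Ighm (-6.98 ± 2.07, adjusted p = 0.018), at a mean of 0.898 CPM in OSE-BPR and 559 CPM in the other GEMM tumours. That 559 CPM came largely from Pax8-BPR GEMM tumours, at 232 to 2750 CPM. Ighm was 23.5, 2.24 and 2.77 CPM in Ovgp1-BPR and 256 and 7.73 CPM in Ad-BPR GEMM tumours. Of 12 plasma cell genes 7 fell and 1 rose (median -6.15, at bounds -4.16). Igkc had 4 counts in the OSE-BPR tumours and 88930 in the others (-10.39 ± 3.10, adjusted p = 0.018). Most of the 88930 were in Pax8-BPR GEMM tumours, and Ovgp1-BPR GEMM replicates 2 and 3 had only 24 and 12. Derl3, a protein of endoplasmic reticulum quality control, rose (2.22 ± 0.38, adjusted p = 3e-04). Of 27 T cell genes 11 fell and 1 rose (median -2.12). The gene that rose was Tcf7 (1.77 ± 0.43, adjusted p = 0.0051), a transcription factor that epithelial cells can also make, at 70.3 CPM in OSE-BPR and 20.3 CPM in the others. Most genes of all leukocytes and of macrophages moved the same way: 9 of 10 and 12 of 14 fell (medians -2.23 and -1.92, median over all genes 0.02). Of 12 cytotoxic genes only 2 fell, and of 9 dendritic cell genes 2 fell and 1 rose (medians at bounds -0.95 and -0.67). List genes near 0 in OSE-BPR and kept through other groups, such as Ighg2c (0 counts against 11415), could only be called lower. The summed macrophage markers were 189 to 593 CPM in OSE-BPR GEMM tumours, and 264 to 1130 in Ovgp1-BPR, 1410 to 1420 in Ad-BPR and 2360 to 3550 in Pax8-BPR GEMM tumours. The part of total leukocyte content in the members' differences was not tested.

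**Figure D4:**
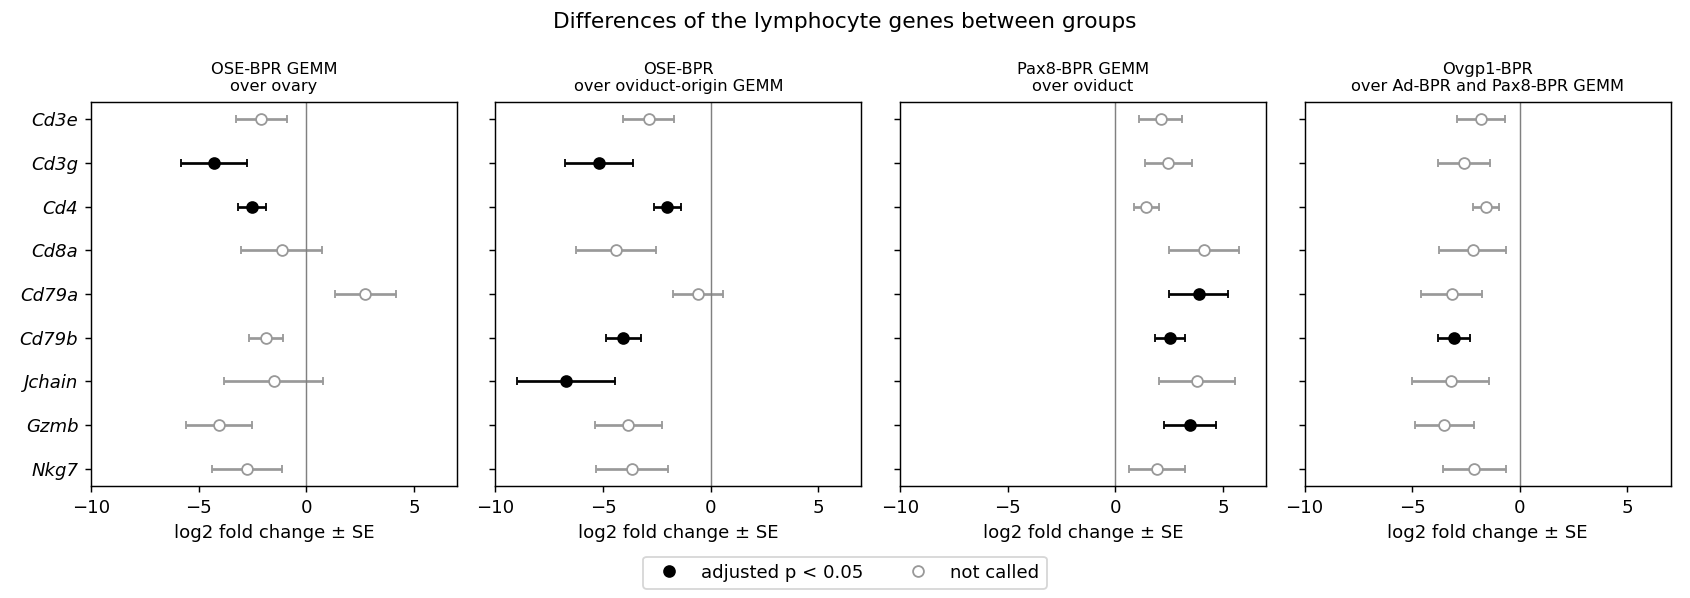
Log2 difference ± SE (horizontal axes) of the members tested in 4 comparisons: OSE-BPR GEMM over ovary, OSE-BPR over oviduct-origin GEMM, Pax8-BPR GEMM over oviduct, and Ovgp1-BPR over Ad-BPR and Pax8-BPR GEMM, with filled black points for an adjusted p under 0.05. Cd79b passes in the last 3 panels, at -4.06, 2.55 and -3.06.

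In Pax8-BPR GEMM tumours, Cd79b, Cd79a and Gzmb rose relative to normal oviduct. Cd79b was 5.86-fold higher (log2 difference 2.55 ± 0.69, adjusted p = 0.0063), Cd79a 14.7-fold (3.88 ± 1.37, adjusted p = 0.033) and Gzmb 11.1-fold (3.47 ± 1.19, adjusted p = 0.028), with all 4 tumours above all 3 oviducts in each. These were 3 of 9 members, where 15.9% of all genes rose and 16.3% fell. Cd8a (4.12 ± 1.63, adjusted p = 0.054), Cd4 (1.44 ± 0.58, adjusted p = 0.06), Cd3g (2.47 ± 1.08, adjusted p = 0.082), Jchain (3.79 ± 1.77, adjusted p = 0.10), Cd3e (2.11 ± 1.01, adjusted p = 0.11) and Nkg7 (1.96 ± 1.30, adjusted p = 0.25) did not pass. In 6 members (Cd4, Cd8a, Cd79a, Cd79b, Gzmb and Nkg7) the tumours lay wholly above the oviducts, as did 18.3% of all genes (23.6% lay wholly below). Replicate 1 was the lowest of the 4 tumours in all 9 members, and in Cd3e it lay below 2 of the 3 oviducts. Gzmb rested on replicate 4: without it the difference was 1.51 (adjusted p = 0.29), and Gzmb was also lost without any 1 of the oviducts (adjusted p = 0.06 to 0.11). Cd79a was lost without Pax8-BPR GEMM replicate 2 (0.050) or 3 (0.061) or any 1 of the oviducts (0.086 to 0.098), and without replicate 1 Cd4 (0.044) and Cd8a (0.049) passed as well.

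Many further B cell, plasma cell and T cell genes rose in Pax8-BPR GEMM tumours, where 15.9% of all genes rose and 16.3% fell. Of 18 B cell genes 13 rose and none fell (median 3.37), with Ighm at 1190 CPM in tumours and 12.2 CPM in oviducts (6.60 ± 1.86, adjusted p = 0.0086) and the B cell coactivator Pou2af1 at 5.45 ± 1.39 (adjusted p = 0.0043). Of 12 plasma cell genes 8 rose and 1 fell (median 4.33, at bounds 3.2), and the gene that fell was Derl3 (-3.26 ± 0.50, adjusted p = 2.6e-05). Of 27 T cell genes 10 rose and none fell (median 2.16), including Cd8b1, the partner chain of Cd8a (5.13 ± 1.62, adjusted p = 0.02), the T cell scavenger receptor Cd6 (4.85 ± 1.34, adjusted p = 0.0076) and the lymph node homing receptor Ccr7 (3.17 ± 1.10, adjusted p = 0.03). Of 13 natural killer and cytotoxic genes 2 rose, a share near that of all genes, among them the chemokine Ccl5 (4.68 ± 1.05, adjusted p = 0.0015). All 10 genes of all leukocytes and 11 of 14 macrophage genes rose too (medians 2.34 and 2.32, median over all genes -0.01). The summed genes of all leukocytes were 576 to 868 CPM in these tumours and 116 to 150 CPM in oviducts. Among normal organs alone, 10 of 18 B cell, 17 of 27 T cell and 7 of 13 plasma cell genes passed the low-count filter. Genes kept through their tumour counts, such as Cr2 (2 counts in oviducts) and Fcrl5 (0), could hardly fall. The list counts and medians above thus follow in part from the filter. Of 7 lymph node stroma genes 1 rose and 1 fell (median 2.39). The gene that fell was the chemokine Ccl21a (-3.58 ± 1.12, adjusted p = 0.016), at a mean of 12.8 CPM in tumours and 154 CPM in oviducts, and the other 6 genes summed to 3.32 to 29.8 CPM in tumours and 4.5 to 7.59 CPM in oviducts.

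In Ad-BPR GEMM tumours no member passed against oviduct by edgeR, where 24.1% of all genes did, 11.7% higher and 12.3% lower (n = 2 and 3), and no member had an unadjusted p under 0.05 or was called by DESeq2 or limma. Cd8a had the largest of the member differences (2.63 ± 1.69, adjusted p = 0.26), and it, Cd79a (1.84 ± 1.41, adjusted p = 0.35) and Cd79b (1.29 ± 0.75, adjusted p = 0.21) lay wholly above the oviducts, as did 30.3% of all genes (35.4% lay wholly below). The other 6 members differed by -0.61 ± 0.69 (Cd4) to 0.95 ± 1.81 (Jchain), with adjusted p of 0.55 or more. In a fit of the compared groups only, Cd8a (adjusted p = 0.02) and Cd79a (0.046) passed. Of other lymphocyte genes, 2 of 27 T cell, 2 of 18 B cell and 2 of 13 cytotoxic genes rose and none fell (medians 0.62, 0.64 and 0.2, median over all genes -0.07), and of 12 plasma cell genes 2 rose and 1 fell (median 1.42). Those that rose included Cd6 (4.44 ± 1.40, adjusted p = 0.023), at 0.796 and 8.69 CPM in the 2 tumours, and the cytotoxic transcription factor Eomes (4.64 ± 1.38, adjusted p = 0.017), at 0.784 and 9.95 CPM. The B cell kinase Blk (4.14 ± 1.19, adjusted p = 0.014) was 7.98 and 26.8 CPM. Of 10 genes of all leukocytes 2 rose, and of 14 macrophage genes 3. As in the Pax8-BPR comparison, list genes at the floor in oviducts could hardly fall.

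In Ovgp1-BPR GEMM tumours no member passed against oviduct either by edgeR, where 32.6% of all genes did, 15.3% higher and 17.3% lower (n = 3 each), nor had any an unadjusted p under 0.05 or a call by DESeq2 or limma. Cd4 (-1.16 ± 0.62, adjusted p = 0.15) and Cd79b (-1.14 ± 0.70, adjusted p = 0.22) lay wholly below the oviducts, as did 30.0% of all genes (24.2% lay wholly above). The other 7 members differed by -1.53 ± 1.34 (Gzmb) to 1.19 ± 1.56 (Cd8a), with adjusted p of 0.34 or more. Replicate 1 had 10.2 CPM of Jchain and 1.8 of Cd8a, and the other 2 tumours at most 0.17 and 0.109, below the oviduct values of both. Without it Nkg7, at 0 counts in both remaining tumours, was called lower (adjusted p = 0.04). Of 27 T cell genes 1 fell, the T cell kinase Zap70 (-2.80 ± 0.82, adjusted p = 0.012), and none rose (median -0.18). Of 18 B cell genes Ebf1 fell (-2.55 ± 0.55, adjusted p = 0.0011) and Pax5, the B lineage transcription factor, rose (3.94 ± 1.32, adjusted p = 0.024), with a list median of -0.07. Of 12 plasma cell genes 3 fell and none rose (median -0.52, median over all genes -0.05). These were the IgG1 heavy chain Ighg1, with 0 counts in tumours and 444 in oviducts, the endoplasmic reticulum protein Mzb1, with 3 and 133 counts, and Derl3 (-2.97 ± 0.55, adjusted p = 0.00027). Of 13 cytotoxic genes 1 fell, the granzyme Gzma, with 0 counts in tumours and 23 in oviducts, and of 10 dendritic cell genes 3 fell and 1 rose (median -2.66). None of 10 genes of all leukocytes or 14 macrophage genes passed (medians 0.24 and 0.54). All 3 comparisons with oviduct share the same 3 oviducts.

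Set against Ad-BPR and Pax8-BPR GEMM tumours, Ovgp1-BPR GEMM tumours were lower in Cd79b, 8.36-fold (-3.06 ± 0.75, adjusted p = 0.0075, n = 3 and 6). This is 1 of 9 members, where 10.2% of all genes fell and 12.5% rose. Cd4 (-1.57 ± 0.62, adjusted p = 0.07), Gzmb (-3.51 ± 1.37, adjusted p = 0.067), Cd79a (-3.17 ± 1.41, adjusted p = 0.11), Cd3g (-2.60 ± 1.22, adjusted p = 0.13), Jchain (-3.22 ± 1.78, adjusted p = 0.19), Cd3e (-1.81 ± 1.10, adjusted p = 0.23), Nkg7 (-2.11 ± 1.45, adjusted p = 0.3) and Cd8a (-2.19 ± 1.57, adjusted p = 0.32) did not pass. Cd79a, Cd79b and Gzmb lay wholly below, as did 10.6% of all genes. Without Ovgp1-BPR GEMM replicate 3 no member passed (Cd79b adjusted p = 0.052), and without replicate 1 Cd3g (0.036), Cd79b (0.02), Jchain (0.042), Gzmb (0.026) and Nkg7 (0.035) did. Of 27 T cell, 18 B cell and 12 plasma cell genes 5 each fell and none rose (medians -1.79, -1.94 and -4.02). Of 12 cytotoxic genes 2 fell and none rose (median -2.82). Those that fell included Cd6 (-4.75 ± 1.46, adjusted p = 0.024) and the T cell receptor beta constant region Trbc2 (-3.52 ± 1.22, adjusted p = 0.043). Blk (-5.97 ± 1.34, adjusted p = 0.0042) and the IgG2c heavy chain Ighg2c (-7.51 ± 2.19, adjusted p = 0.02) fell too. List genes near 0 in Ovgp1-BPR and kept through other groups could only be called lower. Examples were Ighg1 (0 counts, against 13274 in the other GEMM tumours) and Mzb1 (3 against 825). The list counts and medians here thus follow in part from the filter. Genes of all leukocytes fell in 5 of 10 and macrophage genes in 5 of 14. The allele of Trp53 given by the sample labels changes with this model too, and the effects of allele and Cre driver cannot be told apart.

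No member, and none of 20000 genes (0.00%), was called between allografts and GEMM tumours of the same model by edgeR, for OSE-BPR, Ad-BPR, Pax8-BPR, Ovgp1-BPR or their average. The genes with an unadjusted p under 0.05 numbered 457, 352, 2978 and 419 in the 4 models and 1210 for the average, DESeq2 called 12, 11, 731, 9 and 34, and limma 0, 0, 112, 1 and 0. Leaving out single libraries raised the edgeR count only in Pax8-BPR, to at most 117 genes without allograft replicate 1 and no member. Members at an unadjusted p under 0.05 numbered 4 in Pax8-BPR and 0 in the others. The member median of the allograft difference was lowest in Pax8-BPR, at -3.99 against -0.1 over all genes. Cd3e was 0.117 and 0.0729 CPM in the 2 Pax8-BPR allografts and 0.706 to 5.59 CPM in the 4 GEMM tumours (adjusted p = 0.18). Its 3 counts in allografts, against 243 in GEMM tumours, give a counting interval from 12.1- to 174-fold lower. Cd3g was 0.293 and 0 CPM in the allografts, against 0.989 to 8.43 CPM in the GEMM tumours (-4.88 ± 1.70, adjusted p = 0.21). These were the 2 members that DESeq2 called lower (adjusted p = 0.024 and 0.034). Cd79b, at 2.41 and 4.16 CPM in the allografts and 4.73 to 13.7 in the GEMM tumours, had the smallest of the member differences (-1.37 ± 0.82, adjusted p = 0.45). The other 6 members had differences of -1.95 ± 0.75 (Cd4) to -4.67 ± 2.35 (Jchain), with adjusted p from 0.24 to 0.39. In 7 of 9 members both allografts lay below all 4 GEMM tumours, as did 11.3% of all genes. The genes of all leukocytes summed to 158 to 255 CPM in these allografts and 576 to 868 CPM in the GEMM tumours.

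In the other models single members were higher or lower in allografts without passing the test. In Ovgp1-BPR, Gzmb was 0.336, 0.776 and 0.374 CPM in allografts and 0.212, 0 and 0 in GEMM tumours (2.67 ± 1.41, adjusted p = 1.0), the groups not overlapping, as in 2.38% of all genes. The other 8 members differed in Ovgp1-BPR by -0.04 ± 1.29 (Cd3g) to 2.95 ± 1.85 (Jchain), with a median of 0.58 over all 9. In Ad-BPR the 9 members differed by -0.94 ± 0.76 (Cd79b) to 1.64 ± 1.42 (Gzmb), with a median of 0.25. In OSE-BPR 6 members differed by -0.43 ± 0.62 (Cd4) to 1.79 ± 1.82 (Cd8a). The other 3 were Cd3g, with 3 counts in the 5 allografts and 1 in the 3 GEMM tumours, Gzmb, with 1 and 1, and Nkg7, with 4 and 3, and the median over all 9 was -0.08. All adjusted p in these 3 models were 1.0. On the average over models the differences were -0.62 ± 0.70 (Cd79a) to -0.20 ± 0.33 (Cd4) in the 5 members with over 3 counts in every arm, and adjusted p was 0.83 or more in all 9. The test of whether the allograft difference itself differed between OSE-BPR and the other models called no gene by edgeR (0.00%), with 444 genes and no member at an unadjusted p under 0.05, 14 genes called by DESeq2 and 0 by limma. In it, the 6 members with over 3 counts in both OSE-BPR arms had differences of -0.32 ± 0.73 (Cd4) to 3.05 ± 2.11 (Cd8a), and adjusted p was 1.0 in all 9.

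Normal oviduct had more of several B and plasma cell transcripts than normal ovary in the fit of normal organs alone. Cd79a was 3.01-fold higher in oviducts (log2 difference 1.59 ± 0.48, adjusted p = 0.027), Cd79b 2.61-fold (1.38 ± 0.37, adjusted p = 0.018) and Jchain 16.1-fold (4.01 ± 1.04, adjusted p = 0.016), with all 3 oviducts above all 3 ovaries in each. These were 3 of the 7 members tested, where 28.5% of all genes were higher and 24.5% lower (53.0% in all). Cd3e (0.38 ± 0.29, adjusted p = 0.34), Cd3g (0.72 ± 0.35, adjusted p = 0.12), Cd4 (-0.29 ± 0.34, adjusted p = 0.5) and Nkg7 (0.52 ± 0.48, adjusted p = 0.39) did not pass, and Cd8a and Gzmb had too few counts to be tested. Oviducts lay wholly above ovaries in Cd3g, Cd79a, Cd79b and Jchain, as did 28.9% of all genes, and wholly below in Gzmb, as did 37.1%. Among the lists, 6 of 10 B cell genes and 5 of 7 plasma cell genes were higher in oviduct (medians 1.2 and 2.61, median over all genes 0.02), including the IgA heavy chain Igha at 17.3 CPM in oviduct and 0.307 in ovary (5.89 ± 0.97, adjusted p = 0.0022) and Igkc at 23.0 CPM in oviduct and 0.898 in ovary (4.78 ± 0.89, adjusted p = 0.0038). The B cell inhibitory receptor Cd22 was lower (-1.95 ± 0.32, adjusted p = 0.0023). The B cell marker Ms4a1 overlapped, at 0.36, 0.831 and 0.144 CPM in oviducts and 0.485, 0.628 and 0.219 CPM in ovaries. Of 17 T cell genes 4 were higher and 2 lower (median 0.10). Genes of other cells were higher in oviduct too: 3 of 10 genes of all leukocytes (median 0.35), 3 of 14 macrophage genes with 1 lower (0.19), 4 of 8 dendritic cell genes with 1 lower (0.96) and all 6 epithelial genes (4.48). Their part in the members' differences was not tested.

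These normal-organ calls depended on single libraries and on whether the fit held the animal as a term. Cd79a was lost without ovary replicate 1 (adjusted p = 0.064) or 2 (0.07) or oviduct replicate 3 (0.083). Cd79b was lost without ovary replicate 2 (0.063) or 3 (0.051) or oviduct replicate 1 (0.053). Jchain was lost without ovary replicate 2 (0.06) or 3 (0.062), and its fold was 2.43 on the log2 scale without oviduct replicate 2. With the animal as a block, Cd79a had an adjusted p of 0.053, Cd79b 0.027 and Jchain 0.036, and in a fit of all 32 libraries none of the 3 passed (0.55, 0.26 and 0.21).

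Across the 26 tumours the members' ranks varied together to different degrees, given as a description over libraries that share models and depth. Spearman's rho between members ran from 0.43 for Cd79a with Nkg7 to 0.845 for Cd3e with Cd8a. The pair of B cell receptor chains, Cd79a and Cd79b, had a rho of 0.558, lower than Cd79b with Cd4 (0.824) or with Jchain (0.82). Gzmb and Nkg7 had a rho of 0.752, and Cd3e and Cd3g 0.764. Of 15948 other genes, those most like Jchain were immunoglobulin constant regions, Ighm and Igkc at 0.935 each, Igha at 0.916, Ighg2b at 0.905 and Ighg2c at 0.87. Those most like Cd3e were Cd3d (0.86), Siglec1 (0.848), Gimap7 (0.838), Prf1 (0.838) and Tespa1 (0.834). Those most like Cd79a were Slc2a6 (0.833), Arhgdib (0.813), Cd22 (0.813), Tbkbp1 (0.811) and Rasal3 (0.794). Those most like Nkg7 were Mfsd6l (0.889), Gpr174 (0.868), Tcrg-C2 (0.847), Fcgr4 (0.844) and Clec4e (0.84).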

How the data were processed

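RNA from 26 tumours and 6 normal organs was sequenced and quantified per gene. The expected counts were deposited by the authors, as were the TPM values, which are scaled for transcript length and library size. Per the submitters' processing notes, the tools included bcl2fastq, cutadapt 1.18, STAR 2.7.0f, RSEM 1.3.1 and Picard, with mm10 and GRCm38 as builds. Of the expected counts, 6.72% were not whole because RSEM shares ambiguous reads, and they were rounded before testing, which touched 3 of 288 member values. All 55450 identifiers matched GENCODE M21, and 0 columns of the tables belonged to no sample.

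Genes were tested with edgeR 4.0.16 (TMM factors, quasi-likelihood F test, filterByExpr with a minimum count of 10 and a minimum total of 15) in R 4.3.3, with p-values adjusted by the Benjamini-Hochberg method over all genes tested and called at an adjusted p under 0.05. The 6 normal libraries were fitted alone (17334 genes), the 26 tumours together (20000 genes) and, for tumours against normal organs, all 32 (20887 genes). The filter kept a gene if enough libraries of the fit had the minimum count, in whichever groups these were. A gene near the floor in an arm of a comparison could thus be tested, yet could be called in a single direction only. The SE of a log2 difference was obtained by dividing its absolute value by √F. CPM levels use TMM factors of all 32 libraries. Where a group had 3 counts or fewer in all, no fitted fold is given, and a ratio of summed counts stands with its exact 95% interval, which covers counting error only; for a group at 0 counts the bound uses 3 counts per library. Depth was 13987123 to 20514825 counts, so genes under 3 counts per library were near the limit of detection. Alternatives were DESeq2 1.42.0, RLE factors, no low-count filter, limma 3.58.1 on log2(TPM + 1), other sets of libraries, an animal block and leaving out each library. Both organs came from each of the same 3 animals by the labels, so the numbers pair ovary and oviduct, although deviations within the pairs correlated at only -0.0844, -0.0435 and 0.0598. Of 39 replicate pairs none differed by less than sampling noise (lowest chi-square per degree of freedom 10.9). The edgeR and DESeq2 steps were tested on simulated data. Members, marker lists and comparisons were chosen with earlier results of these data known. All 9 members are covered in every comparison, by name or range, and from each list at most the 3 called genes with the largest differences and 1 against them.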

Additional observations from a re-analysis of the deposited data

Results flagged for a closer look

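In each group of 4 or 5 tumours, the highest or lowest CPM of a member was compared with its nearest neighbour by Dixon's test at the 95% level. Of 27 such groups 14 held a sample that stood apart. Chance gives about 1 in 20 for normally distributed values, which these low and skewed CPM are not, and in 3 of the 14 a single library held the only counts of its group, so that it stood apart by construction. Ad-BPR allograft replicate 3 stood apart in 5 members: Cd3e at 2.64 CPM (nearest other 0.349), Cd3g at 3.54 (0.65), Cd8a at 7.78 (0.473), Gzmb at 3.22 (0.333) and Nkg7 at 3.54 (0.355). The same tumour did not stand apart in Cd4, Cd79a, Cd79b or Jchain. In Ad-BPR allografts Jchain was high in replicate 1 instead, at 29.2 CPM (3.94).

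Pax8-BPR GEMM replicate 4 stood apart in both granule genes, Gzmb at 8.16 CPM (nearest other 0.991) and Nkg7 at 5.64 (1.48). OSE-BPR allograft replicate 5 stood apart in Cd79a at 6.45 CPM (0.708), Cd8a at 1.3 (0.162) and Cd3e at 0.31 (0.129). The other 3 rest on 1 to 4 counts in a group otherwise at 0: Cd3g in OSE-BPR allograft replicate 1 (0.172 CPM), Gzmb in OSE-BPR allograft replicate 4 (0.0644 CPM) and Nkg7 in OSE-BPR allograft replicate 3 (0.252 CPM).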

How the results depend on the processing

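No result reversed its direction. For the 13 calls of single members, 132 of 181 alternatives kept the call and 49 lost it. Cd79b kept its call in OSE-BPR against oviduct-origin GEMM tumours, and Cd4 in OSE-BPR GEMM tumours against ovary, under every alternative run. Members called by DESeq2 numbered 6 in Pax8-BPR GEMM tumours against oviduct (3 by edgeR), 7 in OSE-BPR against oviduct-origin GEMM tumours (4), 4 in Ovgp1-BPR against Ad-BPR and Pax8-BPR GEMM tumours (1) and 2 in Pax8-BPR allografts against GEMM tumours (0). A fit of the compared groups only called 1 in OSE-BPR against ovary (2 in the reported fit), 2 in Ad-BPR against oviduct (0), 6 in Pax8-BPR against oviduct and 2 in Ovgp1-BPR against Ad-BPR and Pax8-BPR. In OSE-BPR against ovary, limma on log2(TPM + 1) and no low-count filter each called 1.

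For oviduct against ovary (3 called), the fit of all 32 libraries called 0, and the fit with the animal as replicate block called 2. Leaving out oviduct replicates 1 and 3 together, chosen after the data were seen, called 1 there and 0 in Pax8-BPR against oviduct, with the lone oviduct assumed to vary like the other groups. Leaving out each library in turn gave 0 to 3 members in oviduct against ovary, 1 to 2 in OSE-BPR against ovary, 0 to 0 in Ad-BPR, 1 to 5 in Pax8-BPR and 0 to 1 in Ovgp1-BPR against oviduct, 1 to 4 in OSE-BPR against oviduct-origin and 0 to 5 in Ovgp1-BPR against Ad-BPR and Pax8-BPR.

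Over all genes, oviduct against ovary called 9191, and 2605 in the fit of all 32 libraries. Ad-BPR against oviduct called 5033, 8483 in the compared groups only and 1629 without Ad-BPR GEMM replicate 2. Ovgp1-BPR against Ad-BPR and Pax8-BPR called 4542, 2932 in the compared groups only and 1965 without Ovgp1-BPR GEMM replicate 3. OSE-BPR against oviduct-origin called 5200, and 2695 without OSE-BPR GEMM replicate 3, and OSE-BPR against ovary called 4842, and 3113 without ovary replicate 2. The causes were not tested. For the average over models and its OSE-BPR interaction, a fit of the compared groups only is the reported fit. Depth limits every member at the floor: 75.0% of OSE-BPR values were at 3 counts or fewer and could show little or no further decrease.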

Other observations

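Pigr, the epithelial receptor that carries J chain-bearing antibody across mucosal epithelium, was set beside Jchain by library. It was 60.9, 32.8, 6.47 and 50.7 CPM in Pax8-BPR GEMM tumours, where Jchain was 5.72, 144, 135 and 66.9 CPM. Pax8-BPR allografts had 3.17 and 673 CPM of Pigr, with 6.04 and 0.802 CPM of Jchain. In Ad-BPR Pigr was 144, 309, 9.65 and 10.0 CPM in allografts (Jchain 29.2, 0.118, 0.772 and 3.94) and 394 and 324 in GEMM tumours (Jchain 23.7 and 0.853). In Ovgp1-BPR the highest values of both genes fell in the same tumours, with 0, 0 and 2.01 CPM of Pigr in allografts (Jchain 1.4, 0.414 and 79.8) and 51.2, 0 and 0.0566 in GEMM tumours (Jchain 10.2, 0.164 and 0.17). Both genes were low in OSE-BPR tumours, where Pigr had at most 1 count per library, and Pigr was 39.2, 7.59 and 98.5 CPM in oviducts and at most 0.219 CPM in ovaries. Pigr was looked at because of its textbook pairing with the J chain, and the relation was not tested.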
